A study of Rattus norvegicus with 12 samples.

Results

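The high and the low dose of a neonatal estrogen were compared in terminal end buds of rats aged 49 days, using 4 of the 12 arrays of the study: the 2 from animals given DES 100 µg against the 2 from animals given DES 1 µg, chosen by treatment and age as the labels give them. No oil-injected control entered the comparison, so every difference below is DES 100 µg over DES 1 µg and none says how either dose stands to untreated growth. DES, diethylstilbestrol, is a synthetic non-steroidal estrogen. All animals were inbred female Sprague-Dawley rats that received 1 subcutaneous injection within 24 h of birth, of 100 µg or 1 µg DES in 0.05 ml of sesame oil, and were weaned at 21 days. Both groups therefore carried the vehicle and a neonatal dose of the hormone, and they differed by labelled dose alone. Abdominal mammary glands were frozen and cut into 6 µm sections, stained with toluidine blue, and the end buds were cut out with a laser. Their RNA was amplified linearly, labelled with Cy3 and hybridised to 1-colour Agilent rat arrays, 1 animal per array. The same doses at 35 days of age, 2 animals each, were used to estimate the spread between arrays of a group and for the comparison of the ages.

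Terminal end buds are the club-shaped tips of growing mammary ducts, where cap cells and body cells divide and the duct advances into fat. They respond to estrogen, through amphiregulin made by the epithelium, and to growth hormone and insulin-like growth factor. Milk protein genes such as the caseins are switched on by prolactin through the transcription factors Stat5a and Stat5b, and are used at full strength in the alveoli of late pregnancy and lactation. Immediate early genes such as Fos and Egr1 are transcribed within minutes of a growth or stress signal.

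A level is given as the probe's signal divided by the median signal of its array, and a difference as log2 of DES 100 µg over DES 1 µg ± its standard error, with n = 2 arrays a dose. The p-values come from limma, adjusted by the Benjamini-Hochberg method over all 11569 genes and unnamed probes tested, at a threshold of 0.05. The spread came from 8 DES arrays, with 4 residual degrees of freedom. The array median signal was 37.2 and 25.3 with DES 100 µg and 23.6 and 24.7 with DES 1 µg, and the share of probes well above background was 65.3% and 60.6% with DES 100 µg and 59.2% and 60.7% with DES 1 µg. The first DES 100 µg array was thus the brightest of the 4. Arrays of 1 dose correlated at r = 0.987 for DES 100 µg and 0.992 for DES 1 µg, across 11391 probes. Between the doses r was 0.978 to 0.981. The second array of each dose was scanned on the same day, and the first arrays on 2 other days, so a difference within that shared scan day is given for the leading genes. The epithelial origin of the tissue was borne out by its markers: Epcam, an epithelial adhesion molecule, was at 656 and 621 with DES 100 µg and at 737 and 668 with DES 1 µg, and Krt19, a luminal keratin, at 597 and 557 against 402 and 400. Neither difference passed the test (adjusted p = 0.58 and 0.090). Genes of fat cells, fibroblasts and vessels were also measured on all 4 arrays, so the samples were not of epithelium alone. In such bulk samples fewer cells of a type and less RNA per cell cannot be told apart.

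At 49 days 306 genes or unnamed probes stood higher with DES 100 µg, 2.64% of those tested, and 252 stood lower, 2.18%, which makes 558 or 4.82% in all. Those with a gene symbol numbered 175 higher and 130 lower. Among genes with a symbol detected on all 4 arrays, the largest rises were in Pcp4, Vsnl1, Gcnt3 and Lypd1, and the largest falls in Cd52, Glycam1, Acsm3 and Slc13a3. The median difference over everything tested was 0.03. Of the 10780 features detected on all 4 arrays, 233 were higher and 223 lower, and 86 and 105 of these differed at least 2-fold. Without an adjustment 2528 features had p under 0.05. Both DES 100 µg arrays lay above both DES 1 µg arrays for 28.7% of features and below both for 25.0%, so arrays that do not overlap are common here and carry little weight by themselves.

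The counts depended on every one of the 4 arrays. Without the first DES 100 µg array 77 were higher and 70 lower, and without the second 38 and 28. Without the first DES 1 µg array 52 were higher and 29 lower, and without the second 94 and 61. In each of these fits 1 dose rests on a single array, which is assumed to vary like the other groups. With scan day as a fixed block over 10 arrays, limma called 0 genes, although 1865 had an unadjusted p under 0.05. That fit leaves 1 residual degree of freedom. The tally that follows covers genes named by a fixed rule and leaves out those picked after their values were seen. Of 77 genes named below that passed, 21 also passed with each array left out in turn, 35 passed with none, and none turned its direction in any setting.

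**Figure D1:**
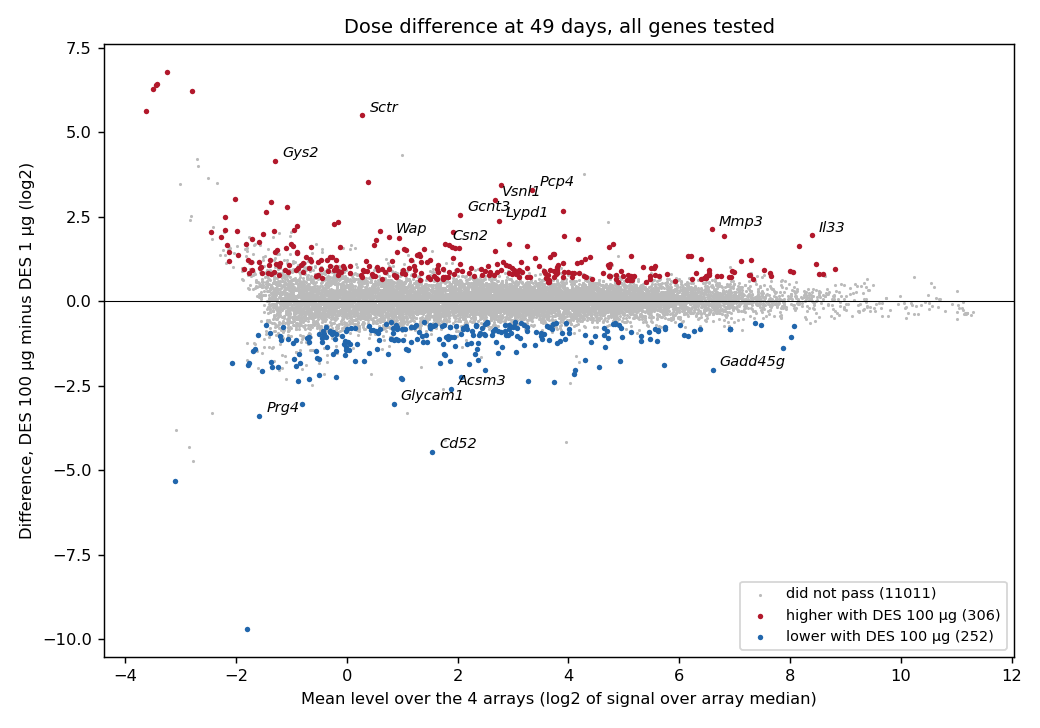
Log2 difference between DES 100 µg and DES 1 µg at 49 days (vertical axis) against the mean log2 level over the 4 arrays (horizontal axis, signal over array median), 1 point per gene or unnamed probe. The 306 that passed as higher and the 252 that passed as lower are spread over most of the range of levels, and the largest fitted differences at the left belong to genes not well above background with 1 dose.

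Of the 12 largest rises, 4 are given first. Pcp4, a small protein that binds calmodulin, was at 27.96 and 36.2 with DES 100 µg and at 3.05 and 3.43 with DES 1 µg, a difference of 3.30 ± 0.16 or 9.84-fold (adjusted p = 0.00058). Vsnl1, a neuronal calcium sensor, was at 20.2 and 15.97 with DES 100 µg and 2.28 and 2.21 with DES 1 µg, a difference of 3.00 ± 0.22 (adjusted p = 0.0018). Its other probe gave 4.04. Both genes stood many-fold higher on each DES 100 µg array than on either DES 1 µg array, and within the shared scan day the differences were 3.40 for Pcp4 and 2.85 for Vsnl1. Chrm3, the M3 muscarinic acetylcholine receptor, was at 3.52 and 3.87 with DES 100 µg against 0.962 and 1.05 with DES 1 µg, a difference of 1.88 ± 0.13 (adjusted p = 0.0013). Lypd1, a membrane-anchored protein of the Ly6 family, was at 15.4 and 15.2 with DES 100 µg and 2.79 and 3.09 with DES 1 µg, a difference of 2.38 ± 0.13 or 5.21-fold (adjusted p = 0.00062). Replicates of these genes lay close together and the doses far apart, and each of the 4 genes passed with any 1 array left out.

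Others of the 12 largest rises were as follows. Mmp3, the stromelysin that cuts matrix proteins, was at 188 and 216 with DES 100 µg and at 47.9 and 44.1 with DES 1 µg, a difference of 2.13 ± 0.17 or 4.38-fold (adjusted p = 0.0025). Il33, an alarmin cytokine kept in the nucleus of barrier cells, was at 718 and 609 with DES 100 µg against 152 and 191 with DES 1 µg, a difference of 1.95 ± 0.18 (adjusted p = 0.0039). A further Il33 probe gave 2.33. Il33 was thus high at both doses and several-fold higher with the larger one. Gcnt3, a glycosyltransferase that branches mucin-type sugars, was at 11.02 and 9.17 with DES 100 µg and 1.61 and 1.80 with DES 1 µg, a difference of 2.56 ± 0.28 (adjusted p = 0.0072). Gcnt3 lost its call without the second DES 100 µg array (difference 2.70) and without the first DES 1 µg array (2.48), while Mmp3 and Il33 kept theirs throughout. Serpinb6b, an intracellular serine protease inhibitor, was at 27.96 and 31.4 with DES 100 µg against 8.01 and 7.61 with DES 1 µg, a difference of 1.92 ± 0.14 (adjusted p = 0.0018). Ccn3, a matricellular protein, was at 2.67 and 2.72 with DES 100 µg and 0.733 and 0.802 with DES 1 µg, a difference of 1.81 ± 0.16 (adjusted p = 0.003). The replicates of each differed far less than the doses did. Fhl2, a LIM-domain cofactor of transcription, was at 46.5 and 54.5 with DES 100 µg against 15.5 and 15.6 with DES 1 µg, a difference of 1.70 ± 0.17 (adjusted p = 0.0051).

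Some genes were well above background with 1 dose only, and their size can be given only as a bound, taken on each dim array against the lowest signal that counted as detected there, or against the gene's own reading where that was higher. Of 235 features not well above background on either DES 1 µg array, 59 passed as higher with DES 100 µg. Over all features tested 2.64% passed as higher. These 235 entered the test through detection on the DES 100 µg arrays, so the 2 shares are not comparable. Sctr, the receptor for the gut hormone secretin, was at 7.96 and 8.46 with DES 100 µg, while its DES 1 µg arrays read 0.138 and 0.235, not well above background, so it was at least 23.8-fold higher (adjusted p = 0.008). Its call was lost without either DES 100 µg array and without the first DES 1 µg array, where the fitted differences were 5.12 to 5.55. Gys2, the liver form of glycogen synthase, was at 1.70 and 1.74 with DES 100 µg against 0.0627 and 0.147, at least 4.99-fold higher (adjusted p = 0.019). Cdh17, an intestinal cadherin whose dim readings were themselves the higher, read 4.89-fold higher, which is the fitted value and no lower bound. Fgg, the fibrinogen gamma chain, was at least 3.61-fold higher and Slc39a2, a zinc transporter, at least 3.39-fold. Cytip, which binds cytohesins in leukocytes, was at least 3.12-fold higher. Adjusted p for these 4 ran between 0.00058 and 0.008. Their DES 100 µg arrays read 0.987 to 2.27 and their DES 1 µg arrays 0.162 to 0.410. Fgg and Slc39a2 passed in every leave-out, Cytip in each but that without the second DES 100 µg array, Cdh17 in those that kept both that array and the first DES 1 µg array, and Gys2 only without the second DES 1 µg array.

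In the other direction 17 of 32 features not well above background on either DES 100 µg array passed as lower, 5 of them with a symbol. Over all features tested 2.18% passed as lower. These 32 entered the test through detection on the DES 1 µg arrays, so again the shares are not comparable. Prg4, the lubricating proteoglycan lubricin, read 0.156 and 0.0680 with DES 100 µg and 1.10 and 1.07 with DES 1 µg, at least 3.99-fold lower (adjusted p = 0.0054). Prss30, a serine protease, was at least 2.71-fold lower (adjusted p = 0.012). Socs3, an inhibitor of cytokine signalling, was at least 2.06-fold lower (adjusted p = 0.032), Arc, an activity-regulated gene of neurons, at least 1.85-fold (adjusted p = 0.023), and Kcnq5, a potassium channel, at least 1.65-fold (adjusted p = 0.029). The last 3 sat near the detection limit also with DES 1 µg, at 0.408 to 0.665. Prg4 passed in every leave-out, Prss30, Socs3 and Arc only without the first DES 100 µg array, and Kcnq5 in none.

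Cd52, a small glycoprotein anchored on the surface of leukocytes and of some epithelia, fell most among genes with a symbol detected on all 4 arrays. Its level was 0.559 and 0.692 with DES 100 µg and 14.3 and 12.96 with DES 1 µg, a difference of -4.45 ± 0.28 or 21.9-fold (adjusted p = 0.00089). All 4 arrays read it above background, and within the shared scan day the difference was -4.23. Defining markers of lymphocytes did not fall with it: Cd3d, part of the T cell receptor complex, was at 2.96 and 3.44 with DES 100 µg and 2.00 and 2.53 with DES 1 µg (adjusted p = 0.21), Cd3g also did not pass, and Cd3e, Cd79b and Ms4a1 were not well above background with either dose.

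Others of the 12 largest falls were as follows. Acsm3, a mitochondrial acyl-CoA synthetase for medium-chain fatty acids, was at 1.39 and 1.61 with DES 100 µg and 9.32 and 8.74 with DES 1 µg, a difference of -2.59 ± 0.13 or 6.04-fold (adjusted p = 0.00058). Its other probe gave -2.82. Slc13a3, a sodium-coupled dicarboxylate carrier, was at 3.90 and 4.58 with DES 100 µg against 22.4 and 21.4 with DES 1 µg, a difference of -2.37 ± 0.14 (adjusted p = 0.00076). Sgk1, a kinase induced by serum and glucocorticoids, was at 8.06 and 8.30 with DES 100 µg against 34.8 and 37.9 with DES 1 µg, a difference of -2.15 ± 0.14 or 4.44-fold (adjusted p = 0.00094). These 3 genes passed with any 1 array left out. Slc22a7, an organic anion carrier, was at 0.379 and 0.427 with DES 100 µg and 1.63 and 2.21 with DES 1 µg, a difference of -2.24 ± 0.25 (adjusted p = 0.0072). Without the second DES 100 µg array it missed the threshold, at an adjusted p of 0.053. Tppp3, a tubulin-binding protein, was at 9.84 and 14.5 with DES 100 µg against 45.3 and 47.4 with DES 1 µg, a difference of -1.96 ± 0.24 (adjusted p = 0.0086). It missed the threshold without either DES 1 µg array. The array's call on Wiz, a zinc-finger protein, rested on 1 of its probes: that probe read 1.63 and 2.28 with DES 100 µg and 7.80 and 10.5 with DES 1 µg (-2.23 ± 0.48, adjusted p = 0.048), while its others gave -0.34 and 0.37.

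**Figure D2:**
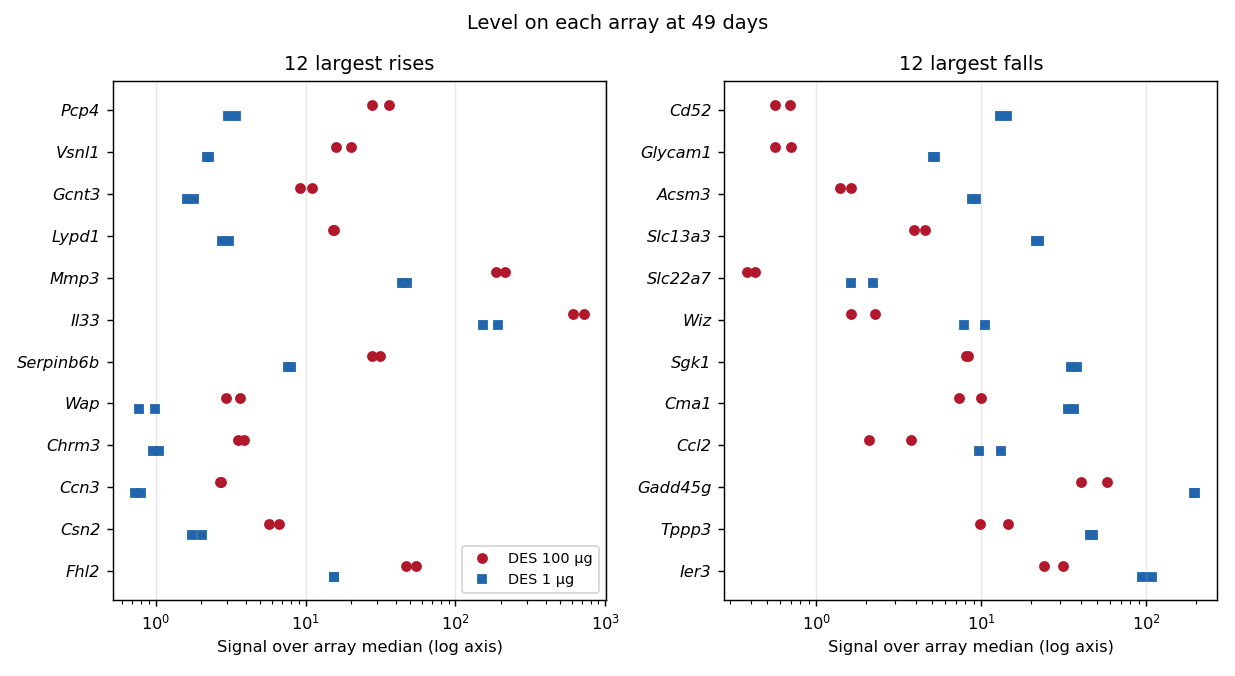
Signal over array median (log axis) on each of the 4 arrays for 24 named genes detected on every array, the 12 that rose most and the 12 that fell most. Red circles are the DES 100 µg arrays and blue squares the DES 1 µg arrays. The replicates of a dose lie close together for most genes, and the differences run from Pcp4 at 9.84-fold higher to Cd52 at 21.9-fold lower. The doses do not overlap because the rule for naming these genes required it.

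Most milk genes that passed were higher with the larger dose. Over all features tested 2.64% were higher and 2.18% lower, which stands beside the counts of this and the later lists. Of 25 measured genes of milk and alveolar differentiation, 10 were higher and 2 lower, and their median difference was 0.59 against 0.03 for all features. The promoters of 4 of them are printed here, since the caseins and Wap on 1 side and Glycam1 on the other moved in opposite directions. Each line is 250 bases before to 50 after the gene start in the RefSeq annotation of GRCr8, 5′ to 3′ on the gene's strand, with capitals marking the letters TTCNNNGAA, the sequence that Stat5 proteins bind. The motif reads alike on both strands.
Csn2, chr14:20601574-20601873, plus strand: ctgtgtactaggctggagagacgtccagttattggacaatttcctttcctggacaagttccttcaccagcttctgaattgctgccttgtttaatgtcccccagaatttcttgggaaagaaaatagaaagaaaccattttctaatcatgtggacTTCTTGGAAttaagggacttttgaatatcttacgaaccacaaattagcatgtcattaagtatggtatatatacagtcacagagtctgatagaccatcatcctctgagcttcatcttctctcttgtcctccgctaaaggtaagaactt
Csn1s2a, chr14:20574422-20574721, minus strand: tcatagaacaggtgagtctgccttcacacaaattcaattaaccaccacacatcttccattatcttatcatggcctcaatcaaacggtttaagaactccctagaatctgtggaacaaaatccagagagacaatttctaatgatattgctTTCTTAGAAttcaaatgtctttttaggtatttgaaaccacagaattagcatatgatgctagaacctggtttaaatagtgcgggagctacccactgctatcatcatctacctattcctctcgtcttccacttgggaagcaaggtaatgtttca
Wap, chr14:85719110-85719409, minus strand: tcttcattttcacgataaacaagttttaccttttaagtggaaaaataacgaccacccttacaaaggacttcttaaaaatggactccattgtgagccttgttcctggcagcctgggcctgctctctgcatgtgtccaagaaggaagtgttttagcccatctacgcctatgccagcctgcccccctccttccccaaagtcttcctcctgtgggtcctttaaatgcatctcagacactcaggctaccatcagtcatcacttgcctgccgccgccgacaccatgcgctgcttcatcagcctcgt
Glycam1, chr7:136561250-136561549, minus strand: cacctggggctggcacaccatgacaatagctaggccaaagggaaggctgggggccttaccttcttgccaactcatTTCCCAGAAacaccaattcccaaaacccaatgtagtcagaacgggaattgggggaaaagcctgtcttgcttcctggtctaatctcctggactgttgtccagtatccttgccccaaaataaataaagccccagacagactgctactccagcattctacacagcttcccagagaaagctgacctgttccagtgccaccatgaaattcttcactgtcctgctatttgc
The motif began 97 bases before the start in Csn2, 102 in Csn1s2a and 175 in Glycam1, and these letters are not in the Wap window. It was found in 5 of the 24 milk genes with a promoter entry (20.8%), and in 2970 of all 33469 promoters (8.87%). Those 5, Csn1s1, Csn1s2a, Csn2, Glycam1 and Prlr, held 2 genes that were higher, 1 that was lower and 2 that did not pass. A match is a description of the letters and shows no binding.

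Csn2, the gene of beta-casein, was at 6.69 and 5.69 with DES 100 µg and at 1.75 and 2.04 with DES 1 µg, a difference of 1.71 ± 0.23 or 3.27-fold (adjusted p = 0.012). Csn1s2a, an alpha-S2 casein, was at 5.70 and 8.74 with DES 100 µg against 2.37 and 2.37 with DES 1 µg, a difference of 1.57 ± 0.27 (adjusted p = 0.026). Wap, the whey acidic protein, was at 2.93 and 3.66 with DES 100 µg and 0.992 and 0.773 with DES 1 µg, a difference of 1.90 ± 0.22 or 3.74-fold (adjusted p = 0.008). In each the lower DES 100 µg array stood at least 2-fold above the higher DES 1 µg array. Within the shared scan day the differences were 1.48 for Csn2, 1.88 for Csn1s2a and 2.24 for Wap. Fabp3, a fatty acid binding protein of muscle and mammary cells, was at 20.6 and 22.2 with DES 100 µg against 8.77 and 7.57 with DES 1 µg, a difference of 1.39 ± 0.15 (adjusted p = 0.0072). Xdh, which helps to envelop milk fat droplets, was at 20.7 and 20.0 with DES 100 µg against 9.66 and 9.68 with DES 1 µg, a difference of 1.07 ± 0.12 (adjusted p = 0.0072). Aqp5, a water channel, was at 227 and 250 with DES 100 µg against 108 and 97.2 with DES 1 µg, a difference of 1.22 ± 0.15 (adjusted p = 0.008). The last 3 were 2.10- to 2.62-fold higher, with no overlap of the arrays, as the rule for naming list members required.

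The remaining members that passed were picked for mention after their values were seen. Lalba, alpha-lactalbumin of lactose synthesis, was at 656 and 605 with DES 100 µg and 347 and 301 with DES 1 µg, a difference of 0.96 ± 0.16 (adjusted p = 0.025). Stat5a was at 252 and 280 with DES 100 µg against 150 and 145 with DES 1 µg, a difference of 0.85 ± 0.13 (adjusted p = 0.021). Stat5b was at 4.44 and 4.70 with DES 100 µg against 2.02 and 2.30 with DES 1 µg, a difference of 1.08 ± 0.18 (adjusted p = 0.023). Both transcription factors that carry the prolactin signal were therefore higher on each DES 100 µg array. The calls on Lalba, Stat5a, Stat5b and Tf were all lost whenever 1 array was left out. Tf, the iron carrier transferrin, differed by 0.94 ± 0.13 (adjusted p = 0.012). Prlr, the prolactin receptor itself, was at 2.74 and 3.04 with DES 100 µg and 3.52 and 3.50 with DES 1 µg and did not pass (-0.28 ± 0.14, adjusted p = 0.29).

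The list was not uniform. Glycam1, a mucin-like glycoprotein of milk and of lymph node vessels, was at 0.699 and 0.561 with DES 100 µg and 5.21 and 5.10 with DES 1 µg, a difference of -3.04 ± 0.62 or 8.23-fold (adjusted p = 0.043). Lpl, the lipoprotein lipase, which fat cells also express, was at 201 and 217 with DES 100 µg against 359 and 330 with DES 1 µg, a difference of -0.72 ± 0.13 (adjusted p = 0.031). A pair of other caseins did not pass: Csn1s1 was at 782 and 759 with DES 100 µg and 606 and 538 with DES 1 µg (0.43 ± 0.14, adjusted p = 0.15), and Csn3 at 360 and 581 against 351 and 361 (adjusted p = 0.48). With 1 array left out, 0 to 5 milk genes were higher and 0 lower while the list's median stayed between 0.52 and 0.71. The count of 0 came without the second DES 100 µg array, 5 without the first, and 2 and 3 without the first and the second DES 1 µg array. Wap and Fabp3 lost their calls only without the second DES 100 µg array, and Csn1s2a kept its call only without the first. Csn2, Glycam1 and Lpl lost theirs in all 4 leave-outs, with Csn2 differing by 1.59 to 1.82.

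Immediate early and stress genes that passed were nearly all lower with the larger dose. Of 29 measured, 7 were lower with DES 100 µg, 1 was higher, and the median difference was -0.32. The promoter of Egr1, a zinc-finger transcription factor of this class, is printed since it holds a pair of CArG boxes, the sites through which serum response factor acts, in capitals; the window and build are as above.
Egr1, chr18:26736828-26737127, plus strand: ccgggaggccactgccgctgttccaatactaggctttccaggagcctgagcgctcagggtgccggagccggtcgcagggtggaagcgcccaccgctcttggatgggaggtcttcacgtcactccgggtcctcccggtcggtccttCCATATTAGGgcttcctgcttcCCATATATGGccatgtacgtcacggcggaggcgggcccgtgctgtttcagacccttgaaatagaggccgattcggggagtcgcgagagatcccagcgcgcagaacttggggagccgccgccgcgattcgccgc
The boxes began 105 and 83 bases before the start. A CArG box, which reads alike on both strands, was in 4 of the 24 genes of the list with a promoter entry (16.7%), namely Dusp5, Egr1, Klf6 and Zfp36, and in 548 of 33469 promoters (1.64%). Of those 4 only Egr1 passed, and the promoters of Fos and Ier3 were not scored.

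Fos, a component of the AP-1 transcription factor, was at 11.6 and 10.1 with DES 100 µg and at 35.9 and 35.6 with DES 1 µg, a difference of -1.72 ± 0.18 or 3.30-fold (adjusted p = 0.0057). Egr1, picked after its values were seen, was at 120 and 175 with DES 100 µg against 376 and 385 with DES 1 µg, a difference of -1.39 ± 0.20 (adjusted p = 0.015). Ccn1, a matricellular protein induced by growth factors, was at 16.9 and 16.2 with DES 100 µg against 60.2 and 51.8 with DES 1 µg, a difference of -1.76 ± 0.15 (adjusted p = 0.0025). In all 3 the DES 1 µg arrays were high and agreed closely, and the DES 100 µg arrays lay well below them. Ier3, an early gene that acts on cell survival, was at 24.1 and 31.2 with DES 100 µg and 108 and 93.9 with DES 1 µg, a difference of -1.88 ± 0.16 or 3.69-fold (adjusted p = 0.0033). Gadd45g, a growth arrest and stress gene, was at 40.3 and 57.7 with DES 100 µg against 197 and 194 with DES 1 µg, a difference of -2.02 ± 0.21 (adjusted p = 0.0057). Both lay apart by several times the spread of the replicates. Junb, an AP-1 partner picked after its values were seen, was at 3.76 and 4.55 with DES 100 µg and 7.75 and 6.56 with DES 1 µg, a difference of -0.79 ± 0.16 (adjusted p = 0.037).

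The seventh member that fell was Socs3, given above as a bound. The 1 member that was higher was Hsph1, a heat shock protein, with a difference of 0.84 ± 0.17 (adjusted p = 0.043), named after its value was seen. Other members did not pass: Jun, the main partner of Fos, had a difference of -0.21 (adjusted p = 0.54), Atf3 0.21 (adjusted p = 0.42), Nr4a1 -0.54 (adjusted p = 0.082) and Ptgs2, the inducible cyclooxygenase, -1.89 (adjusted p = 0.061). With 1 array left out 4 or 5 of the genes were still lower and the median ran from -0.41 to -0.25. Ccn1, Ier3 and Gadd45g passed each time, and Fos each time but without the second DES 100 µg array. Egr1 and Junb lost their calls without either DES 1 µg array and without the first DES 100 µg array. Within the shared scan day the differences were -1.81 for Fos, -1.13 for Egr1, -1.68 for Ccn1, -1.59 for Ier3 and -1.75 for Gadd45g.

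Of 13 genes known to respond to estrogen, 2 were higher and 1, Fos, was lower, where 4.82% of all features passed, and their median was 0.11. Pgr, the progesterone receptor and a direct target of the estrogen receptor, was at 9.33 and 10.9 with DES 100 µg and 5.89 and 5.47 with DES 1 µg, a difference of 0.83 ± 0.14 or 1.78-fold (adjusted p = 0.023). C3, the complement component that estrogen raises in rat uterus, was at 6.16 and 7.31 with DES 100 µg against 2.17 and 2.31 with DES 1 µg, a difference of 1.58 ± 0.14 or 3.00-fold (adjusted p = 0.0034). The doses did not overlap for either, as the rule for naming list members required. Areg, amphiregulin, the epidermal growth factor family ligand that passes the estrogen signal on in the growing duct, did not pass, at 1594 and 1715 with DES 100 µg and 1500 and 1575 with DES 1 µg (0.11 ± 0.14, adjusted p = 0.71). Stc2, stanniocalcin 2, was at 3.90 and 3.38 with DES 100 µg against 2.19 and 2.21 with DES 1 µg and did not pass (0.72 ± 0.28, adjusted p = 0.19). Pgr lost its call when any 1 array was left out and C3 kept its call each time.

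Of 13 hormone and growth factor receptors, Pgr was higher and 2 nuclear receptors were lower, where 4.82% of all features passed. Their median was -0.10. Rarb, a retinoic acid receptor, was at 3.28 and 3.48 with DES 100 µg and 6.65 and 5.34 with DES 1 µg (-0.82 ± 0.16, adjusted p = 0.037). Pparg is the nuclear receptor that drives fat cell formation. It was at 1.65 and 1.61 with DES 100 µg and 3.61 and 3.49 with DES 1 µg (-1.12 ± 0.14, adjusted p = 0.0091). Its other probe gave -1.08. Rarb and Pparg, like Pgr, lost their calls with any 1 array left out.

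Among 15 duct growth factors and matrix remodelling genes, 3 were higher and 1 lower, with a median of 0.26. Besides Mmp3, Pthlh, the parathyroid hormone-related protein that mammary epithelium secretes, was at 24.4 and 37.8 with DES 100 µg and 12.6 and 12.7 with DES 1 µg, a difference of 1.26 ± 0.22 (adjusted p = 0.028). Inhbb, a subunit of activins and inhibins, was at 3.25 and 2.21 with DES 100 µg against 1.08 and 1.27 with DES 1 µg, a difference of 1.2 ± 0.26 (adjusted p = 0.049). Replicates of both genes spread widely with DES 100 µg while staying above both DES 1 µg arrays, which the rule for naming them required. Mmp7, the epithelial matrilysin, was at 21.9 and 31.4 with DES 100 µg and 60.6 and 58.3 with DES 1 µg, a difference of -1.18 ± 0.23 (adjusted p = 0.037). The 2 matrix proteases thus moved in opposite directions. Mmp3 alone of these 4 passed in every leave-out.

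The luminal genes that passed were higher with the larger dose. Of 13 measured, 3 were higher and 0 lower, with a median of 0.39. Cldn7, a tight junction protein, was at 492 and 542 with DES 100 µg and 234 and 249 with DES 1 µg, a difference of 1.10 ± 0.13 or 2.14-fold (adjusted p = 0.008). Tspan8, a tetraspanin of secretory epithelia, was at 8.98 and 10.2 with DES 100 µg against 4.24 and 4.74 with DES 1 µg, a difference of 1.09 ± 0.15 (adjusted p = 0.012). Aqp5, given above, was the third. Muc1, a luminal mucin, had lower values with DES 100 µg, 9.41 and 11.5 against 18.9 and 17.6 with DES 1 µg, and did not pass (-0.81, adjusted p = 0.052). The summed level of the 6 luminal markers measured was 1921 and 1959.8 with DES 100 µg and 1539 and 1470.1 with DES 1 µg. Without the second DES 100 µg array or the first DES 1 µg array 0 of the 13 passed, without the second DES 1 µg array 1 did, and without the first DES 100 µg array all 3 did.

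Basal and myoepithelial genes, which mark the contractile outer layer, were mixed. Of 15 measured, 2 were higher and 0 lower, with a median of 0.22. Myh11, smooth muscle myosin, was at 14.8 and 12.4 with DES 100 µg and 7.12 and 6.44 with DES 1 µg, a difference of 1.00 ± 0.18 (adjusted p = 0.029). Cnn1, calponin, was at 100 and 113 with DES 100 µg against 55.9 and 62.3 with DES 1 µg, a difference of 0.85 ± 0.18 (adjusted p = 0.045). Krt14, a basal keratin, ran the other way without passing, at 72.8 and 79.8 with DES 100 µg and 109 and 106 with DES 1 µg (-0.49 ± 0.13, adjusted p = 0.082), and its other probe gave -0.63. The contractile genes and the keratin therefore had opposite signs. No basal gene passed when an array was left out.

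Genes of protein secretion and lipid synthesis that passed were higher with the larger dose. Of 19 genes of folding and secretion in the endoplasmic reticulum, 3 were higher and 0 lower, with a median of 0.38. Creld2, a stress-induced protein of that compartment, was at 16.8 and 23.8 with DES 100 µg and 8.43 and 7.61 with DES 1 µg, a difference of 1.32 ± 0.20 (adjusted p = 0.019). Hspa5, the chaperone BiP, was at 460 and 518 with DES 100 µg against 296 and 265 with DES 1 µg, a difference of 0.80 ± 0.16 (adjusted p = 0.041). Hyou1, another chaperone, differed by 0.91 ± 0.15 (adjusted p = 0.024) on its brightest probe and by 0.23 on the other. All 3 kept the DES 100 µg arrays above the DES 1 µg arrays, which the rule for naming them required. Of 26 genes of fatty acid and cholesterol synthesis, 3 were higher and 0 lower, with a median of 0.37. Fasn, fatty acid synthase, was at 178 and 168 with DES 100 µg and 98.7 and 89.9 with DES 1 µg, a difference of 0.88 ± 0.15 or 1.84-fold (adjusted p = 0.028). Lss, lanosterol synthase, differed by 0.71 ± 0.13 (adjusted p = 0.033), and Fads1, a fatty acid desaturase, by 0.68 ± 0.14 (adjusted p = 0.047). With 1 array left out 0 or 1 gene of each list passed.

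Genes of fat and stroma that passed were lower with the larger dose. Of 14 adipocyte genes 5 were lower and 0 higher, with a median of -0.56, and 12 of the 14 had a negative difference. Adipoq, the fat cell hormone adiponectin, was at 12.8 and 15.3 with DES 100 µg and 34.0 and 31.1 with DES 1 µg, a difference of -1.22 ± 0.17 or 2.32-fold (adjusted p = 0.013). Fabp4, the fatty acid binding protein of fat cells and some vessels, was at 14.5 and 13.5 with DES 100 µg against 28.6 and 27.4 with DES 1 µg, a difference of -0.999 ± 0.13 (adjusted p = 0.011). Rbp4, a retinol carrier, was at 16.5 and 19.7 with DES 100 µg against 38.6 and 37.4 with DES 1 µg, a difference of -1.07 ± 0.15 (adjusted p = 0.015). Pparg and Lpl, described above, completed the 5, each higher on both DES 1 µg arrays. Yet Cfd, adipsin, an abundant fat cell product, was at 245 and 328 with DES 100 µg and 281 and 287 with DES 1 µg. The summed level of the 3 fat cell markers measured, which Cfd dominates, was 272 and 357 with DES 100 µg and 344 and 345 with DES 1 µg.

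Of 23 fibroblast and collagen matrix genes 5 were lower and 0 higher, with a median of -0.46, and 21 of the 23 had a negative difference. Ogn, the small proteoglycan osteoglycin, was at 3.95 and 4.74 with DES 100 µg and 10.3 and 12.1 with DES 1 µg, a difference of -1.36 ± 0.17 (adjusted p = 0.0089). Mgp, a matrix protein that inhibits calcification, was at 168 and 190 with DES 100 µg against 398 and 349 with DES 1 µg, a difference of -1.06 ± 0.14 (adjusted p = 0.012). Mfap5, a microfibril protein, was at 26.9 and 39.1 with DES 100 µg against 72.0 and 73.3 with DES 1 µg, a difference of -1.16 ± 0.22 (adjusted p = 0.034). Dpt, dermatopontin, fell by 0.79 ± 0.14 on the log2 scale (adjusted p = 0.029), and S100a4, a calcium-binding protein of fibroblasts and leukocytes picked after its values were seen, fell by 1.04 ± 0.20 (adjusted p = 0.036). The fibrillar collagen Col1a2 was at 863 and 968 with DES 100 µg and 1483 and 1113 with DES 1 µg and did not pass (-0.49, adjusted p = 0.22). The summed level of the 4 fibroblast markers was 972 and 1055 with DES 100 µg and 1631 and 1235 with DES 1 µg.

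Of 13 endothelial genes 2 were lower and 0 higher, with a median of -0.49. Pecam1, a junction protein of vessels, was at 5.38 and 4.70 with DES 100 µg and 9.49 and 9.39 with DES 1 µg, a difference of -0.91 ± 0.17 (adjusted p = 0.031). Emcn, endomucin, was at 3.76 and 5.02 with DES 100 µg against 9.28 and 8.22 with DES 1 µg, a difference of -1.01 ± 0.17 (adjusted p = 0.024). The summed level of 4 vessel markers was 38.0 and 49.4 with DES 100 µg and 58.4 and 63.2 with DES 1 µg, and Cdh5 was not well above background with either dose. The fibroblast and vessel sums were lower on both DES 100 µg arrays, while the fat cell sums of the doses overlapped, and their part in the results for epithelial and milk genes was not tested. In none of the leave-outs did any adipocyte, fibroblast or endothelial gene pass, while the medians kept their sign, at -0.68 to -0.45, -0.47 to -0.32 and -0.71 to -0.28.

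All 5 mast cell genes measured had a negative difference and 2 passed as lower, with a median of -1.24. Cma1, mast cell chymase, was at 7.37 and 9.92 with DES 100 µg and 36.6 and 33.3 with DES 1 µg, a difference of -2.03 ± 0.20 or 4.09-fold (adjusted p = 0.0051), and passed with any array left out. Hdc, the enzyme that makes histamine, was near the detection limit, at 0.325 and 0.343 with DES 100 µg against 0.822 and 0.753 with DES 1 µg (-1.24 ± 0.16, adjusted p = 0.0098), and passed in no leave-out. Cpa3, mast cell carboxypeptidase, was at 3.95 and 2.29 with DES 100 µg and 10.2 and 8.87 with DES 1 µg and did not pass (-1.66, adjusted p = 0.063). The summed level of Cma1, Cpa3 and Tpsb2 was 11.96 and 12.8 with DES 100 µg and 47.8 and 43.4 with DES 1 µg.

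Of 16 macrophage and antigen presentation genes 3 were lower and 0 higher, with a median of -0.40. Ccl2, the monocyte chemokine, was at 2.08 and 3.75 with DES 100 µg and 9.70 and 13.2 with DES 1 µg, a difference of -2.02 ± 0.37 or 4.05-fold (adjusted p = 0.031). Ccl7, a related chemokine, was at 0.524 and 0.530 with DES 100 µg against 1.37 and 1.56 with DES 1 µg, a difference of -1.48 ± 0.20 (adjusted p = 0.011). Fcgr2b, an inhibitory Fc receptor, fell by 0.60 ± 0.13 on the log2 scale (adjusted p = 0.047). Both chemokines are also made by stromal and epithelial cells, and the 2 macrophage markers measured, C1qb and Cd74, summed to 70.1 and 62.0 with DES 100 µg and 77.8 and 86.0 with DES 1 µg. None of the 3 passed with an array left out.

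Of 15 lymphocyte genes 2 were higher and 1, Cd52, was lower, where 4.82% of all features passed, and their median was 0.32. Cd5, a T cell surface receptor, was at 0.978 and 1.27 with DES 100 µg and 0.589 and 0.380 with DES 1 µg (1.24 ± 0.26, adjusted p = 0.048). Only 1 of its DES 1 µg arrays was well above background, so the size is not firm. Cxcr4, a chemokine receptor that many cell types carry, was at 2.90 and 3.21 with DES 100 µg against 1.79 and 1.75 with DES 1 µg (0.78 ± 0.15, adjusted p = 0.033). Neither passed with an array left out.

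Of 30 cell division genes 2 were lower and 0 higher, a share near the 4.82% of all features that passed. Their median was -0.40, and 22 had a negative difference. Prc1, a protein of the dividing cell's midzone, was at 11.8 and 9.64 with DES 100 µg and 21.9 and 19.1 with DES 1 µg, a difference of -0.94 ± 0.17 (adjusted p = 0.027). Cdc25b, a phosphatase that starts mitosis, was at 2.20 and 2.10 with DES 100 µg against 3.66 and 3.82 with DES 1 µg, a difference of -0.80 ± 0.17 (adjusted p = 0.049). Cdk1, the kinase of mitosis, was at 98.1 and 108 with DES 100 µg and 131 and 121 with DES 1 µg and did not pass (-0.29, adjusted p = 0.29). Neither Prc1 nor Cdc25b passed with an array left out.

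Single members passed in 3 further lists, each a share near the 4.82% of all features that passed. Isg20, an interferon-induced exonuclease, was at 63.4 and 63.2 with DES 100 µg and 32.1 and 31.8 with DES 1 µg (0.99 ± 0.15, adjusted p = 0.019), alone among 22 interferon genes whose median was -0.14. Gsta1, a glutathione transferase, was at 39.2 and 43.1 with DES 100 µg against 25.0 and 23.6 with DES 1 µg (0.76 ± 0.16, adjusted p = 0.044), alone among 19 genes of xenobiotic and estrogen metabolism. Gadd45g was the only one of 16 genes of DNA damage and p53 to pass. Isg20 and Gsta1 lost their calls with any 1 array left out. In 7 lists limma called 0 of 125 members, 20 of which had an unadjusted p under 0.05: 39 ribosomal proteins, 30 genes of mitochondrial oxidative phosphorylation, 17 of basement membrane and integrins, 14 of Wnt and Notch signalling, 12 of DNA methylation and chromatin, 7 Hox and homeobox genes and 6 skeletal muscle genes. Their medians lay between -0.23 and 0.08, and other settings called at most 2 members of any of them. In simulated data of this size, with noise independent between arrays, 100 features were changed 2-fold and 100 were changed 4-fold. Of these, 54% of the 2-fold and 100% of the 4-fold differences were recovered. Differences of 2-fold were thus often missed in that setting. Recovery depends on how many features truly differ, so the share missed on the real arrays is not known.

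**Figure D3:**
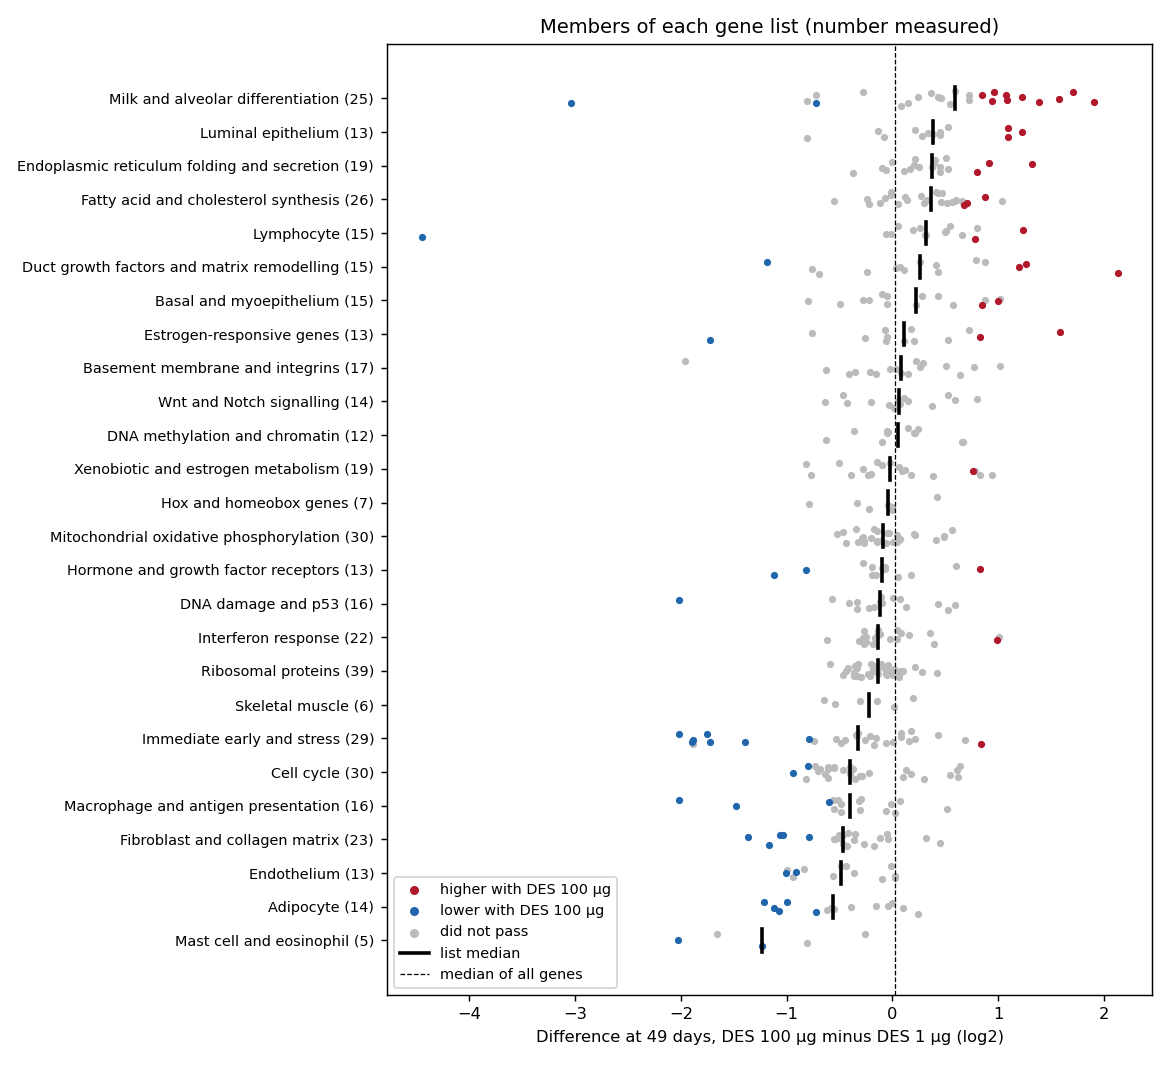
Log2 difference between DES 100 µg and DES 1 µg at 49 days for each measured member of 26 gene lists, 1 row per list, with the list's median as a black bar and the median of all features (0.03) as a dashed line. Milk genes lie mostly to the right (median 0.59) and mast cell, adipocyte, endothelial and fibroblast genes to the left (medians -1.24, -0.56, -0.49 and -0.46).

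The dose difference was then set against that at 35 days, which uses 4 other arrays. The calls at both ages share 1 estimate of the spread from all 8 arrays and a set of features chosen by detection at 49 days. At 35 days 361 features were higher with DES 100 µg (3.12%) and 374 lower (3.23%), 6.35% in all. Of the features called at either age, 219 were called at both, which is 39.2% of the calls at 49 days and 29.8% of those at 35 days. Of these 219, 89 were higher and 103 lower with DES 100 µg at both ages, 15 were higher at 49 days and lower at 35 days, and 12 the reverse. Across all 11569 features the 2 differences correlated at r = 0.26, and across the 10619 detected on all 8 DES arrays at 0.21, given as a description since genes are not independent. The change of the dose difference between the ages, that at 49 days minus that at 35 days, was tested itself in the same fit and passed for 147 features (1.27%), more positive at 49 days for 68 (0.588%) and more negative for 79 (0.683%). Every one of the 27 features called in opposite directions was among them. This was fixed in advance and is no separate evidence, since 2 passing differences of opposite sign add up in the change.

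**Figure D4:**
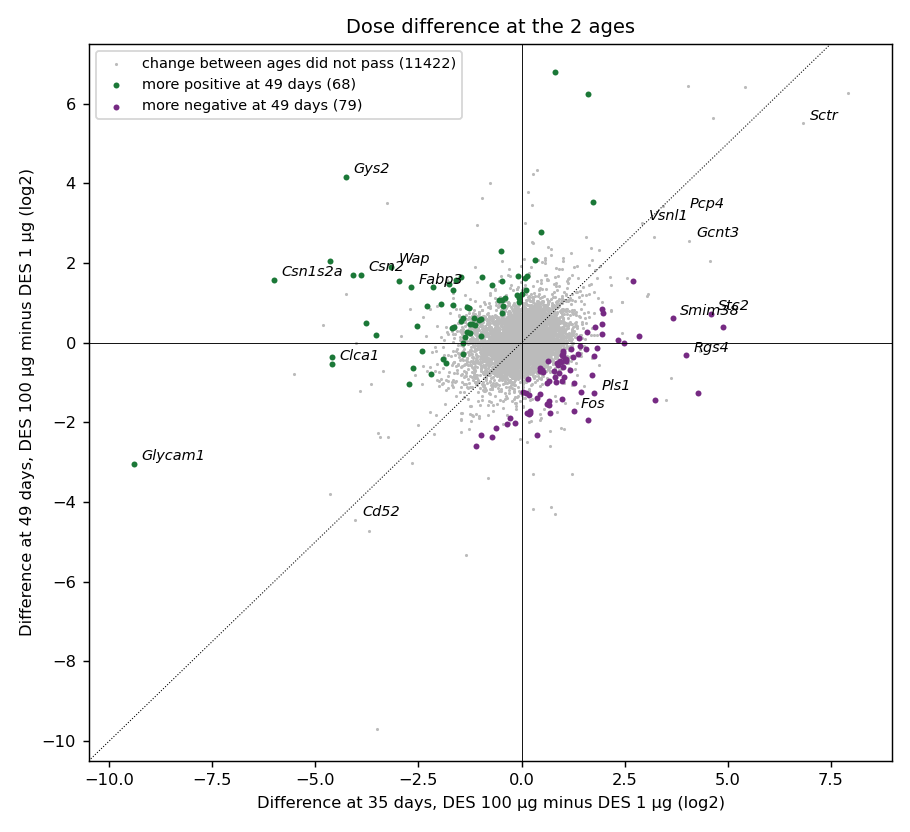
Log2 difference between DES 100 µg and DES 1 µg at 49 days (vertical axis) against the same at 35 days (horizontal axis), 1 point per feature, with the dotted line marking equality. The 68 features more positive at 49 days are green and the 79 more negative purple; caseins, Wap and Fabp3 lie at the upper left and Fos and Pls1 at the lower right.

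Several of the largest differences had the same sign at both ages. Cd52 was at 0.267 and 0.500 with DES 100 µg and 5.83 and 6.28 with DES 1 µg at 35 days, a difference of -4.05, and the change between the ages did not pass (-0.40, adjusted p = 0.63). Pcp4 was at 23.5 and 22.1 with DES 100 µg against 1.47 and 1.56 with DES 1 µg at 35 days, a difference of 3.91. Vsnl1 differed by 2.92 at 35 days, Gcnt3 by 4.07, Serpinb6b by 1.91, Ccn3 by 1.79 and Il33 by 1.63. Sctr was at least 43.9-fold higher with DES 100 µg at 35 days. Pgr was at 8.30 and 7.86 with DES 100 µg and 3.31 and 3.38 with DES 1 µg at 35 days (1.27, adjusted p = 0.0038), and the change did not pass (-0.44, adjusted p = 0.30). For these genes the same dose was the higher at both ages. Of 19 genes listed for their dose difference at 35 days in these same samples, which is therefore no independent list, 7 were higher and 2 lower at 49 days, with a median of 0.62.

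Several milk genes had opposite dose differences at the ages. Their median was 0.59 at 49 days and -0.17 at 35 days, when 4 were higher and 8 lower, and for 7 of the 25 the change passed, each more positive at 49 days. Csn2 at 35 days was at 2.34 and 1.56 with DES 100 µg and 31.3 and 25.4 with DES 1 µg, a difference of -3.89 ± 0.23, and the change between the ages was 5.59 ± 0.32 (adjusted p = 0.0012). Csn1s2a at 35 days was at 0.610 and 0.420 with DES 100 µg and 28.2 and 37.8 with DES 1 µg, a difference of -6.01 ± 0.27, and the change was 7.59 ± 0.38 (adjusted p = 0.0011). Wap at 35 days was at 0.457 and 0.476 with DES 100 µg and 3.49 and 5.03 with DES 1 µg, and the change was 5.07 ± 0.32 (adjusted p = 0.0017). With DES 100 µg these 3 genes read higher on both arrays at 49 days than at 35 days, and with DES 1 µg lower, so that the doses changed places. Fabp3 at 35 days was at 5.89 and 4.88 with DES 100 µg and 35.4 and 32.99 with DES 1 µg, and the change was 4.06 ± 0.22 (adjusted p = 0.0011). For Csn1s1 the change was 1.56 ± 0.21 (adjusted p = 0.022), and for Xdh 1.56 ± 0.17 (adjusted p = 0.010).

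Glycam1 was lower with DES 100 µg at both ages, to a different extent. At 35 days it read 0.438 and 0.0905 with DES 100 µg, where 1 of the 2 arrays was above background, and 137 and 133 with DES 1 µg. The fitted change of 6.36 ± 0.88 (adjusted p = 0.026) rests on that reading near background, and its size is not firm. Its DES 1 µg level at 49 days, 5.21 and 5.10, was likewise far below that at 35 days.

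Several immediate early genes were lower with DES 100 µg at 49 days and not at 35 days. Their median was -0.32 at 49 days and 0.34 at 35 days, when 7 of the 29 were higher and 0 lower, and for 7 the change passed, each more negative at 49 days. Fos at 35 days was at 30.6 and 23.2 with DES 100 µg and 12.04 and 10.2 with DES 1 µg, a difference of 1.27 ± 0.18 (adjusted p = 0.0098), and the change was -2.99 ± 0.25 (adjusted p = 0.0039). Among the DES groups alone, Fos thus read highest with DES 1 µg at 49 days and next highest with DES 100 µg at 35 days. Egr1 at 35 days was at 166 and 168 with DES 100 µg and 119 and 142 with DES 1 µg, and the change was -1.76 ± 0.28 (adjusted p = 0.042). Ccn1 at 35 days was at 27.0 and 23.2 with DES 100 µg and 23.1 and 22.3 with DES 1 µg, and the change was -1.90 ± 0.21 (adjusted p = 0.010). Ier3 at 35 days was at 21.1 and 21.3 with DES 100 µg and 25.3 and 26.3 with DES 1 µg, and the change was -1.60 ± 0.23 (adjusted p = 0.030). For Gadd45g it was -1.85 ± 0.30 (adjusted p = 0.041). In Ccn1, Ier3 and Gadd45g the DES 1 µg arrays at 49 days stood above all 6 other DES arrays.

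**Figure D5:**
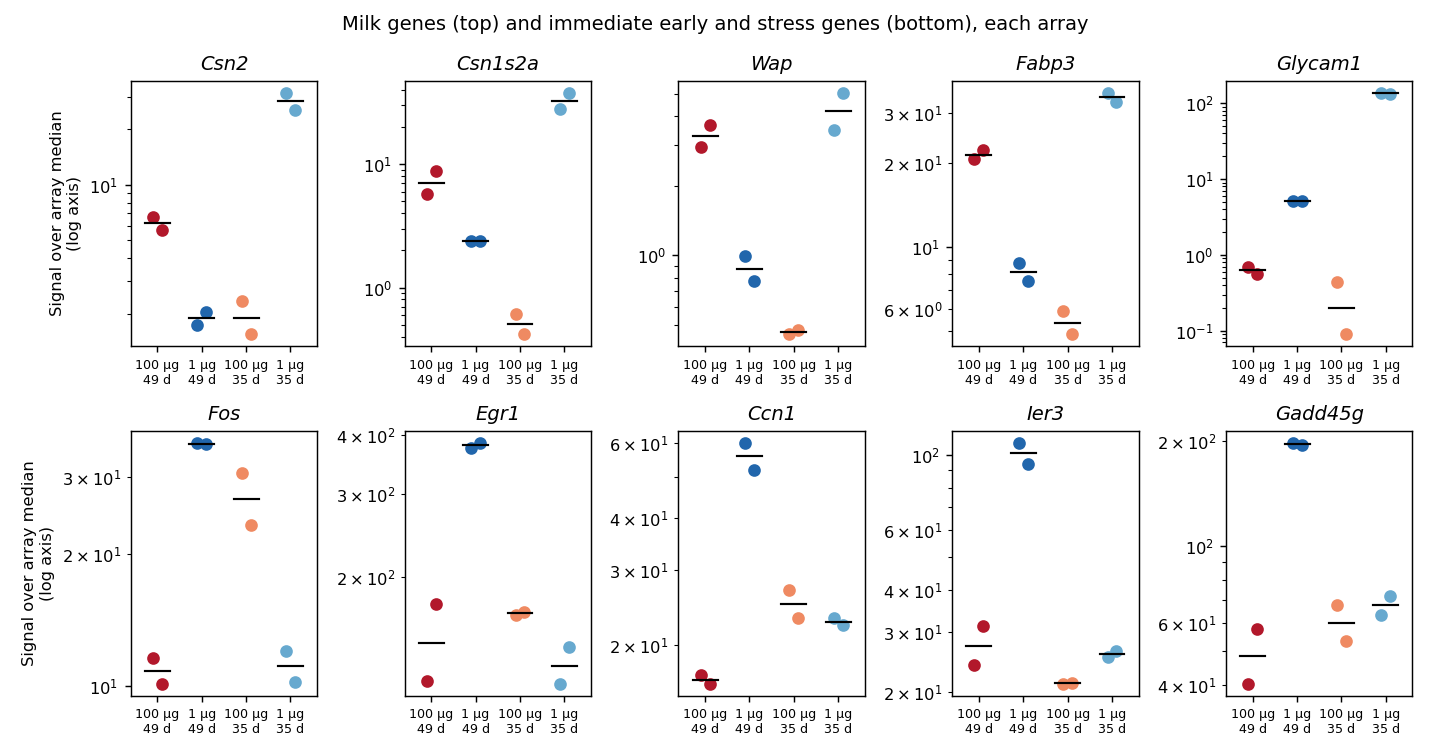
Signal over array median (log axis) on each of the 8 DES arrays for 5 milk genes (top) and 5 immediate early genes (bottom), with groups from left to right DES 100 µg and DES 1 µg at 49 days, then DES 100 µg and DES 1 µg at 35 days; points are arrays and lines geometric means. Csn2, Csn1s2a, Wap and Fabp3 are higher with DES 100 µg at 49 days and lower with it at 35 days, and Ier3, Ccn1 and Gadd45g stand out with DES 1 µg at 49 days.

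Further genes changed their dose difference with age. Rgs4, a regulator of G-protein signalling, was at 1.08 and 0.791 with DES 100 µg and 0.987 and 1.34 with DES 1 µg at 49 days, with the groups overlapping (-0.31 ± 0.21, adjusted p = 0.43). At 35 days it had been at 14.3 and 13.6 with DES 100 µg against 0.837 and 0.906 with DES 1 µg, and the change was -4.31 ± 0.29 (adjusted p = 0.0018). Stc2 had been at 12.2 and 11.1 with DES 100 µg and 0.662 and 0.354 with DES 1 µg at 35 days, and the change was -3.86 ± 0.39 (adjusted p = 0.0083). Smim38, a small membrane protein, was at 22.6 and 17.9 with DES 100 µg and 14.2 and 12.1 with DES 1 µg at 49 days, and the change was -3.06 ± 0.32 (adjusted p = 0.009). For these 3 genes the wide gap between the doses at 35 days was not seen at 49 days. Clca1, a secreted protein that modulates chloride channels, was at 253 and 266 with DES 100 µg and 366 and 385 with DES 1 µg at 49 days (-0.53 ± 0.12, adjusted p = 0.061), against 51.9 and 51.2 with DES 100 µg and 1291 and 1207 with DES 1 µg at 35 days, a change of 4.07 ± 0.18 (adjusted p = 0.00075). Pls1, an actin-bundling fimbrin, was at 0.642 and 0.605 with DES 100 µg and 1.68 and 1.35 with DES 1 µg at 49 days (-1.27 ± 0.18, adjusted p = 0.012), against 2.24 and 1.92 with DES 100 µg and 0.673 and 0.550 with DES 1 µg at 35 days, a change of -3.04 ± 0.25 (adjusted p = 0.0036).

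The medians of the stromal lists had the same sign at both ages. The median over fibroblast genes was -0.46 at 49 days and -0.49 at 35 days, that over adipocyte genes -0.56 at 49 days and -0.65 at 35 days, and that over endothelial genes -0.49 at 49 days and -1.31 at 35 days, when 9 of the 13 were lower. Mast cell chymase Cma1 differed between the ages, with a change of -1.68 ± 0.28 (adjusted p = 0.047), and the summed mast cell markers at 35 days were 29.9 and 29.3 with DES 100 µg and 31.8 and 34.9 with DES 1 µg. The low mast cell sum with DES 100 µg was thus not present at 35 days. Acsm3, Slc13a3 and Sgk1, lower with DES 100 µg at 49 days, also changed, by -1.48 ± 0.19, -1.67 ± 0.20 and -1.54 ± 0.20 (adjusted p = 0.020, 0.016 and 0.021). The counts of changes between the ages depended on single arrays as well: 57 passed without the first DES 1 µg array at 49 days, 66 without the second, 51 without the first DES 100 µg array and 47 without the second, against 147 with all.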

How the data were processed

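Expression was measured in terminal end buds on 1-colour Agilent rat arrays. The deposited value table holds signal intensities from Agilent Feature Extraction 9.1.3.1, per the submitters' processing notes, background-subtracted and not scaled across arrays. It equalled the scanner files of 10 arrays within 0.497%. The authors' normalized table gives the ratio of each intensity to the array median and then to control arrays, as its values show, and supplied their present and marginal flags. Its dose differences agreed within 0.05 on the log2 scale for 99.99% of 11570 probes. No genome build is named in the sources used here.

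Each of the 8 DES arrays was divided by its median, floored at 0.01 and log2-transformed. Of 20500 probes that are not controls, those flagged present or marginal on both arrays of at least 1 dose at 49 days were tested, with the brightest probe kept for each of 766 genes with several. This left 11569 features, 5361 with a symbol from the RefSeq gene table or the array files. Group means were fitted in limma 3.58.1 (R 4.3.3). A feature not well above background on both arrays of a dose has only a bound. The p-values rest on the spread between arrays of a group, 1 animal per array and 2 arrays a group, pooled over both ages. The arrays of each DES group were scanned on different days, so this spread mixes animals with scan day and handling. The number of arrays limits the precision. On simulated data 4.94% of 162 calls were false for the dose difference. For the change between the ages 5% of 2-fold and 80% of 4-fold changes were recovered, with 2.30% of 87 calls false. The simulated noise was independent between arrays and genes, with no effect of scan day or array brightness. These shares therefore need not hold for the calls made on the real arrays.

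Members, 27 gene lists and tests were chosen with earlier results of these data known. Named genes, 84 in all, are the 12 that rose most and the 12 that fell most among those seen on all 4 arrays, the 6 largest bounds each way, up to 4 members of each list with the smallest p, 14 genes given whatever their values, and the 5 largest changes each way between the ages. Another 9 were picked after their values were seen, as were Hsph1 and members named as not passing. Alternatives were the 75th percentile, quantile and normexp scaling, a floor of 0.1, other filters, every probe alone, other arrays for the spread, a replicate block, scan day as a block, a variance trend and leaving out each array. The oil arrays entered only as an alternative for the spread and for scan day.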

Additional observations from a re-analysis of the deposited data

Results flagged for a closer look

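The dose difference (DES 100 µg over DES 1 µg, log2) was not the same at 49 as at 35 days for 26 of the genes named, by the test of the change itself in limma at an adjusted p under 0.05 over all features. Each value here is the difference at 49 days minus that at 35 days. It was positive for the milk genes Csn1s2a (7.59), Csn2 (5.59), Wap (5.07), Fabp3 (4.06), Csn1s1 (1.56) and Xdh (1.56). For Glycam1 (6.36) the size rests on a reading not well above background at 35 days. For the liver glycogen synthase Gys2 (8.42) such readings enter at both ages, DES 1 µg at 49 days and DES 100 µg at 35 days, and the size is not firm. For Cdh17 (2.79) and Fgg (2.31) it rests on DES 1 µg readings not well above background at 49 days. It was also positive for Clca1 (4.07) and the chaperone Hyou1 (1.36).

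The change was negative for the early and stress genes Fos (-2.99), Ccn1 (-1.90), Gadd45g (-1.85), Egr1 (-1.76), Ier3 (-1.60) and Arc (-2.14), whose DES 100 µg arrays at 49 days were not well above background. It was negative for Rgs4 (-4.31), Stc2 (-3.86), Smim38 (-3.06) and Pls1 (-3.04), and for Cma1 (-1.68), Slc13a3 (-1.67), Sgk1 (-1.54) and Acsm3 (-1.48). Arrays differed in brightness and scan day between groups, and their part in these changes was not tested beyond the settings given next.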

How the results depend on the processing

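With all arrays 306 features were higher and 252 lower at 49 days, and the change between the ages was positive for 68 and negative for 79. Leaving out each array in turn gave 38 to 94 higher and 28 to 70 lower, and 28 to 45 positive and 17 to 23 negative changes, so the number of calls depends on every array. With no filter on detection, over 18651 features, there were 165 higher and 148 lower, and 39 and 36 changes. With the spread from the 4 arrays at 49 days alone there were 126 and 131, and with that from all 12 arrays 468 and 432, with 157 and 199 changes. With normexp and quantile normalization 304 were higher and 334 lower, and 143 changes were negative; this was added after the data were seen and uses pixel medians, since pixel means were not used here. A variance trend gave 124 negative changes. With scan day as a fixed block limma called 0 higher, 0 lower, 0 positive and 0 negative changes, with 1865 and 1824 unadjusted p under 0.05 and 1 residual degree of freedom, while a random block gave 419 higher and 352 lower.

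Replicate numbers share no source in the labels, so they were not used to pair the animals. Same-numbered arrays deviated with r = -0.03 at 49 days and 0.16 at 35 days, which cannot settle whether they are paired. The second arrays of both DES doses shared a scan day at each age. A replicate block gave 404 higher and 414 lower, and 124 negative changes. The 75th percentile, quantile, floor, flag, all-4-array and single-probe settings kept each count within 1.5 times. No named gene turned its direction. Readings under about 0.22 to 0.36 of the array median, the lowest detected on the 4 arrays, give only bounds.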
